A study of Mus musculus with 40 samples.

Results

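Trem2, Tyrobp and Apoe belong to 1 signalling group of brain immune cells, described here by 8 genes of the mouse cerebellum: Trem2, Tyrobp, Apoe, Syk, Plcg2, Inpp5d, Cd33 and Hcst. They were found by symbol, after the version was taken off each Ensembl ID, and all 8 were among the 54331 gene rows of the deposited table. Male C57BL6 mice of 4 genotypes were fed a ketogenic diet (KD) or a standard diet (SD). INDY refers to Slc13a5, which encodes a citrate transporter, CSB to the product of Ercc6, a factor of transcription-coupled DNA repair, and DKO was taken as the loss of both. The 40 libraries were 5 DKO KD, 4 DKO SD, 5 CSB KD, 6 CSB SD, 6 INDY KD, 6 INDY SD, 4 WT KD and 4 WT SD. Age and alleles are not in the labels, nor is it stated that each library is a different mouse, so p-values measure the spread between these samples, which may be technical. Each value is a read count estimated and normalised by the authors, differences are on the log2(value + 1) scale, and a gene is called where limma gave a Benjamini-Hochberg adjusted p under 0.05 over 21367 tested genes.

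TREM2 is a surface receptor of microglia, the resident macrophages of the brain, that binds lipids and lipoprotein particles. It has no signalling tail of its own and signals through the adaptor TYROBP (DAP12), whose tyrosine motif recruits the kinase SYK, which in turn activates phospholipase C gamma 2, encoded by Plcg2. HCST (DAP10) is a second adaptor, which couples receptors to phosphoinositide 3-kinase. APOE, the main lipid carrier of the brain, is made by astrocytes and by activated microglia, and is a ligand of TREM2. INPP5D (SHIP1) is a lipid phosphatase that dampens this pathway, and CD33 in humans is a sialic acid receptor that inhibits it.

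The group has 4 genes on chromosome 7 and the others elsewhere. Trem2 (ENSMUSG00000023992.14) lies at chr17:48346401-48354147 on the plus strand of GRCm38, Syk (ENSMUSG00000021457.14) at chr13:52583173-52648792 (plus), Plcg2 (ENSMUSG00000034330.10) at chr8:117498291-117635142 (plus) and Inpp5d (ENSMUSG00000026288.14) at chr1:87620312-87720507 (plus). Chromosome 7 holds Apoe (ENSMUSG00000002985.16, 19696109 to 19699188, minus), Tyrobp (ENSMUSG00000030579.10, 30413760 to 30417585, plus), Hcst (ENSMUSG00000064109.8, 30417712 to 30419854, minus) and Cd33 (ENSMUSG00000004609.11, 43524216 to 43544428, minus). Tyrobp and Hcst lie tail to tail, with 126 bases between their ends, and the sources used here do not say whether counting used strand. The authors' notes name mm9, so these positions are those of the annotated genes and not of the authors' alignments.

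The promoters of Trem2 and Apoe are shown because both genes were called higher with the CSB genotype. The RefSeq table for GRCm38.p6 held windows for 7 of the 8 genes, Tyrobp not among them. The 250 bases before the annotated start are given 5′ to 3′ on the strand of the gene, Trem2 at chr17:48346151-48346400 (plus) and Apoe at chr7:19699189-19699438 (minus).
Trem2: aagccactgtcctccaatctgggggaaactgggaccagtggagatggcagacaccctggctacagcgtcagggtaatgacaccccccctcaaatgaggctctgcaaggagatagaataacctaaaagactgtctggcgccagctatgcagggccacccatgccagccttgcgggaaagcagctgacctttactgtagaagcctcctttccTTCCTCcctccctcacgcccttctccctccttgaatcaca
Apoe: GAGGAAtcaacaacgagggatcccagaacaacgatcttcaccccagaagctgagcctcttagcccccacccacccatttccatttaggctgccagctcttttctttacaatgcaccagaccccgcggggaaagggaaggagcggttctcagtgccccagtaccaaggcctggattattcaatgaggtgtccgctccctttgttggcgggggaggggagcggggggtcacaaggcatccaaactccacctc
Capitals mark matches to 1 of the 4 motifs sought on both strands. GAGGAA, a core of sites for the myeloid factor PU.1 (Spi1), stands at the far end of the Apoe window and is read as TTCCTC in Trem2. The 7 genes had 10 windows in the table, since Apoe and Syk have several starts. GAGGAA was found in 6 of these 10 windows, in 5 of the 7 genes, and in 23.3% of all 32851 promoter windows of this length. CACGTG (an E-box) was found in 1 of the 10 windows, that of Plcg2, and in 6.02% of all windows. TGACTCA, the AP-1 motif, was found in 0 of the 10 and in 4.46% of all windows, and the ETS-IRF composite motif in 0 of the 10 and in 2.3%. The matches are of letters and are not measured binding sites.

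Normalised values summed to 23736702 to 32247186 per library, so the sequencing depth behind them is unknown. The genotype labels were checked on 3 genes. Slc13a5 was at 0 to 0.934 in 21 DKO and INDY libraries, against 82.1 to 161 in 19 CSB and WT libraries. Ercc6 was at 382 to 876 in 20 DKO and CSB libraries, against 633 to 1070 in 20 INDY and WT libraries, so its ranges overlap. Gm6768, a predicted gene chosen after its values were seen, was at 929 to 1245 in every DKO and CSB library and at 0 in 19 of 20 INDY and WT libraries. In the library labelled WT KD 25 it was at 1041, with the lowest Ercc6 value of its genotypes, 633, so that library goes against its label. The main results that use WT KD libraries are therefore given without it too. Other libraries stand apart by markers of other cells. WT KD 7 and WT KD 12 had mean log2 levels of the neutrophil and monocyte list of 7.68 and 9.49, against 2.08 to 5.27 elsewhere. DKO SD 1 had a forebrain level of 9.23 beside a cerebellar neuron level of 7.86, and 5 libraries had liver levels above 7. Beyond leaving libraries out and taking the forebrain and liver levels as covariates, the part of these markers in the results was not tested.

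Read per kilobase of exon, Apoe had by far the highest mean level over the 40 libraries, 9764. Tyrobp followed with 541 and Trem2 with 49.5. The length used is that of all annotated exons of a gene merged over its transcripts, 4.946 kb for Trem2 and 0.667 kb for Tyrobp. Before division by length the mean values were 245 for Trem2 and 361 for Tyrobp. The adaptor thus stood above the receptor by both measures, but the size of the gap depends on these lengths. The other genes had means per kilobase of 32.2 for Plcg2, 27.5 for Inpp5d, 14.8 for Cd33 and 7.56 for Syk. Hcst had 4.22 per kilobase and reached a value of 10 in 0 of 40 libraries. The other 7 reached 10 in all 40 libraries and were tested.

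**Figure D1:**
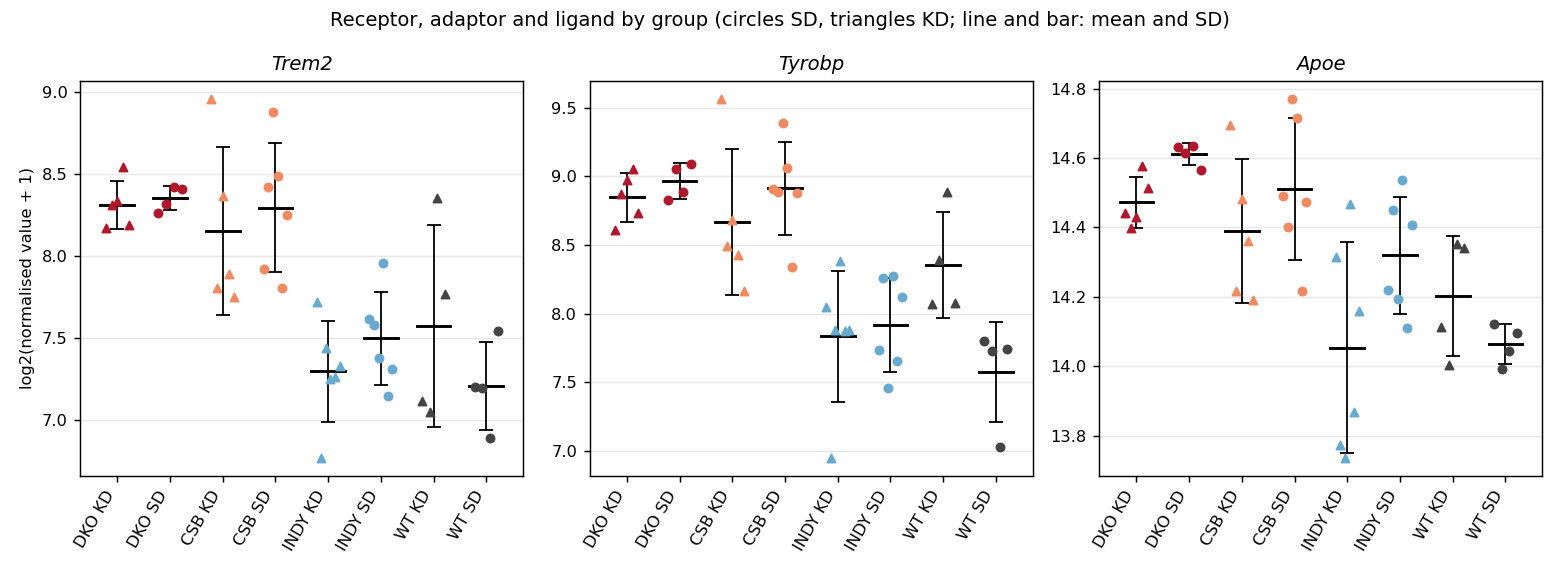
Log2(normalised value + 1) of Trem2, Tyrobp and Apoe by group, with 1 point per library (triangles KD, circles SD) and the mean with its SD. The DKO and CSB groups stand highest for all 3 genes, and the highest WT KD point for Trem2 and Tyrobp is the library labelled WT KD 25.

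Trem2, Tyrobp and Apoe were higher with the CSB genotype than without it when both diets were averaged, by 0.89 ± 0.11 for Trem2, 0.93 ± 0.12 for Tyrobp and 0.34 ± 0.06 for Apoe (log2 difference ± SE of the fit, 20 DKO and CSB libraries against 20 INDY and WT libraries). These are folds of 1.85, 1.90 and 1.26. The receptor and its adaptor thus differed by similar amounts, and the ligand by less. The other 4 tested genes, Syk, Plcg2, Inpp5d and Cd33, were not called. Called genes made up 0.796% of all tested genes in this comparison and 0.566% were called higher, beside 3 of the 7 tested genes of the group, all higher. With DKO SD 1 and 35 left out the share of all genes called was 7.09%. Single libraries moved it too, to 6.47% (INDY KD 22 left out), 4.49% (DKO KD 23) and 1.29% (INDY SD 33), and the same 3 genes of the group were called each time. In bulk tissue more cells of a type and more RNA per cell cannot be told apart.

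The receptor gene, Trem2, had normalised values of 288, 317, 322, 373 and 292 in DKO KD and 307, 318, 342 and 339 in DKO SD. In CSB KD it had 497, 222, 329, 236 and 214, and in CSB SD it ran from 223 through a median of 323 to 470. INDY KD libraries lay at 108 to 210 with a median of 156, and INDY SD libraries at 141 to 248 with a median of 178. WT libraries had 138, 131, 327 and 217 on KD and 146, 145, 118 and 186 on SD. The DKO libraries lay close together, whereas CSB KD held both the highest and the lowest Trem2 values of the DKO and CSB libraries. The 20 DKO and CSB libraries lay at 214 to 497, against 108 to 327 in the 20 INDY and WT libraries. The ranges overlapped through 3 INDY and WT libraries, WT KD 28, INDY SD 14 and the library labelled WT KD 25, and without the last the INDY and WT values ended at 248. The limma adjusted p for Trem2 was 3.07e-06, with a 95% interval of 0.67 to 1.11 for the log2 difference. With the library labelled WT KD 25 left out the difference was 0.95 with an adjusted p of 1.78e-07.

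The adaptor gene, Tyrobp, had values of 390, 467, 500, 530 and 425 in DKO KD and 453, 531, 472 and 545 in DKO SD. In CSB KD it had 755, 359, 411, 344 and 286, and in CSB SD it ran from 324 through a median of 476 to 669. The library highest for Trem2, CSB KD 13, was also highest for Tyrobp. INDY KD libraries lay at 123 to 334 with a median of 235, and INDY SD libraries at 175 to 308 with a median of 245. WT libraries had 268, 334, 473 and 269 on KD and 223, 211, 130 and 213 on SD. On SD the groups did not overlap, at 324 to 669 in 10 DKO and CSB libraries and 130 to 308 in 10 INDY and WT libraries. On KD they did, at 286 to 755 in DKO and CSB and 123 to 473 in INDY and WT. Without the library labelled WT KD 25 the highest INDY and WT value on KD was 334. How many of all genes separate as Tyrobp did on SD was not counted. Over both diets the adjusted p was 2.63e-06 and the 95% interval 0.70 to 1.15. When the library labelled WT KD 25 was left out the difference was 0.97 with an adjusted p of 7.51e-07.

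The ligand gene, Apoe, had values of 22243, 21597, 22058, 24436 and 23373 in DKO KD and 25395, 25091, 25445 and 24238 in DKO SD. CSB KD libraries had 26528, 19047, 22885, 21057 and 18708, and CSB SD libraries ran from 19054 through a median of 22871 to 27930. INDY KD libraries ran from 13656 through 16629 to 22669, and INDY SD libraries from 17683 through 20414 to 23793. WT libraries had 17735, 16422, 20892 and 20732 on KD and 17813, 16292, 16900 and 17507 on SD. All 4 DKO SD libraries lay above every INDY and WT library, but elsewhere the ranges overlapped. Of the 20 INDY and WT libraries, 9 lay above the lowest DKO or CSB library. Splits of this kind were not counted over all genes. The adjusted p was 0.000795, with a 95% interval of 0.22 to 0.45. With the library labelled WT KD 25 left out the difference was 0.35 with an adjusted p of 0.00072.

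By group mean, the 4 highest groups for each of these 3 genes were the DKO and CSB groups. For Trem2 the mean log2 levels ran from 8.35 ± 0.07 in DKO SD (SD, n = 4), 8.31 ± 0.15 in DKO KD (n = 5), 8.30 ± 0.39 in CSB SD (n = 6) and 8.15 ± 0.51 in CSB KD (n = 5) to 7.57 ± 0.62 in WT KD (n = 4), 7.50 ± 0.28 in INDY SD (n = 6), 7.30 ± 0.31 in INDY KD (n = 6) and 7.21 ± 0.27 in WT SD (n = 4). No 2 neighbours in the orders of Trem2 and Apoe were apart by more than the larger of their SDs. In the order of Tyrobp only WT KD and INDY SD were, by 0.44 beside an SD of 0.38. Without the library labelled WT KD 25, WT KD averaged 7.31 ± 0.40 for Trem2, 8.18 ± 0.18 for Tyrobp and 14.15 ± 0.17 for Apoe (SD, n = 3), and its Tyrobp mean was then within an SD of the 7.92 ± 0.34 of INDY SD.

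**Figure D2:**
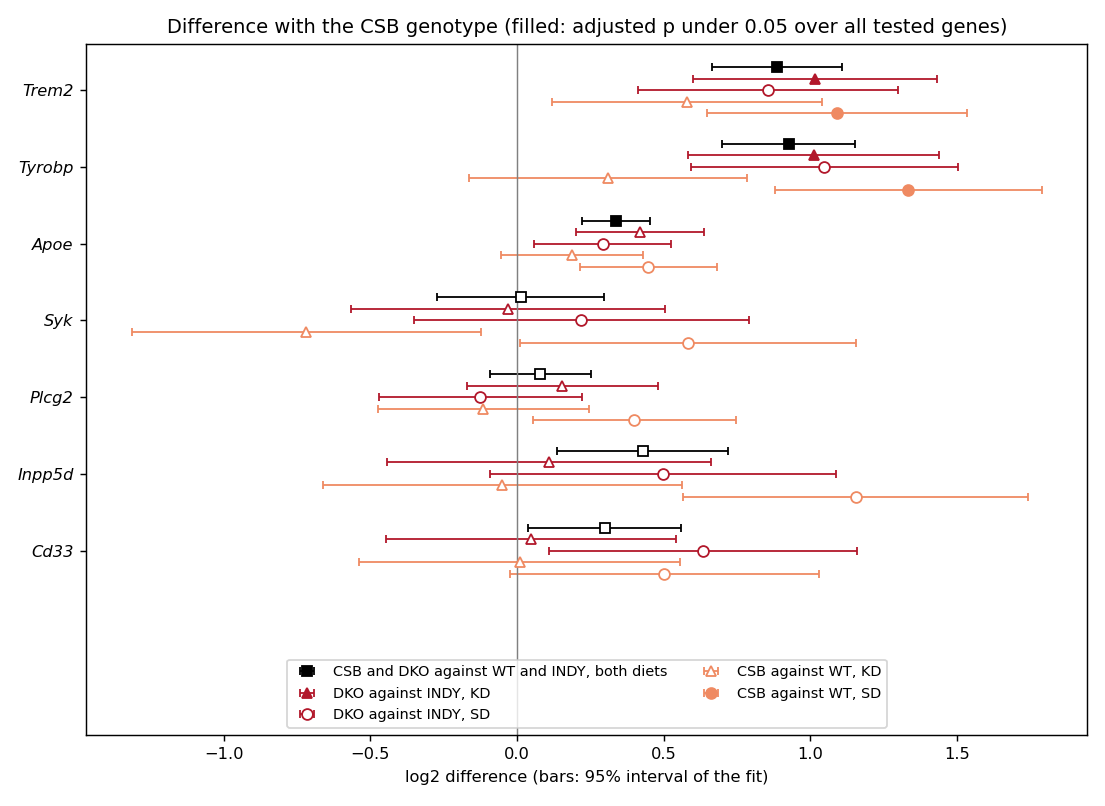
Log2 difference for the 7 tested genes with bars for the 95% interval of the fit, for the average over both diets (black squares) and for each pair of genotypes on each diet (triangles KD, circles SD; filled where the adjusted p is under 0.05). The squares of Trem2, Tyrobp and Apoe lie at 0.89, 0.93 and 0.34, those of Syk and Plcg2 at 0.01 and 0.08.

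Taken by diet, the receptor, the adaptor and the ligand were called on SD and only the receptor on KD. On SD the differences were 0.97 ± 0.16 for Trem2 (adjusted p 0.000537), 1.19 ± 0.16 for Tyrobp (adjusted p 2.96e-05) and 0.37 ± 0.08 for Apoe (adjusted p 0.0257), with 10 libraries on each side, and 0.431% of all genes were called, 0.393% higher. The Apoe call on SD was lost without any 1 of 9 libraries (DKO SD 1, 34 and 35, CSB SD 16 and 26, INDY SD 11 and 32, WT SD 40 and 41), at adjusted p of 0.0509 to 0.0716, while the Trem2 and Tyrobp calls were kept under every alternative tried. It was also lost with the microglia level described below as a covariate (0.20, adjusted p 0.944), with forebrain and liver levels as covariates (0.34, adjusted p 0.0929), without DKO SD 1 and 35 (adjusted p 0.113) and without the 5 libraries high in liver genes (adjusted p 0.0918). On KD the differences were 0.80 ± 0.16 for Trem2 (adjusted p 0.0172), 0.66 ± 0.16 for Tyrobp (adjusted p 0.13) and 0.30 ± 0.08 for Apoe (adjusted p 0.183), and 0.108% of all genes were called, 0.0796% higher. With the library labelled WT KD 25 left out Tyrobp was called on KD too, at 0.75 with an adjusted p of 0.0408, and Trem2 reached 0.93 with 0.000826. The Trem2 call on KD was lost without any 1 of WT KD 7, WT KD 12, CSB KD 13, CSB KD 19 or DKO KD 24, at adjusted p of 0.0515 to 0.0985, and without WT KD 7 and 12 together the difference was 0.55 (adjusted p 0.27). Whether the CSB difference itself differed between diets was tested directly: it was smaller on KD by 0.17 ± 0.22 for Trem2 and by 0.53 ± 0.23 for Tyrobp, with adjusted p of 0.873 and 0.532, and limma called 0 genes. At an unadjusted p under 0.05, 3 of the 7 passed in that test, Tyrobp, Syk and Inpp5d, beside 9.08% of all genes. When the library labelled WT KD 25 was left out the KD difference minus the SD difference was -0.04 for Trem2 and -0.44 for Tyrobp (adjusted p 0.993 and 0.745), and 2 passed unadjusted, Syk and Inpp5d, beside 6.55% of all genes.

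In CSB against WT and in DKO against INDY the differences of these 3 genes were above 0 on both diets. They were also above 0 in DKO against WT, which differs by Slc13a5 as well and shares its libraries with those pairs. In CSB against WT on SD, Trem2 was higher by 1.09 ± 0.23 (adjusted p 0.0221) and Tyrobp by 1.33 ± 0.23 (adjusted p 0.0046), while Apoe, at 0.45 ± 0.12, was not called (adjusted p 0.187), where 0.136% of all genes were called and 0.122% were higher. The Tyrobp call was lost without WT SD 41 (1.15, adjusted p 0.0607), and the Trem2 call without WT SD 39, 40 or 41 or CSB SD 8, 16 or 26 (adjusted p 0.0626 to 0.214). With forebrain and liver levels as covariates Trem2 was at 1.14 with an adjusted p of 0.0569. In DKO against WT on SD all 3 were called, Trem2 at 1.15 ± 0.25 (adjusted p 0.0242), Tyrobp at 1.39 ± 0.25 (adjusted p 0.0081) and Apoe at 0.55 ± 0.13 (adjusted p 0.0329), in a comparison that called 5.92% of all genes and 3.1% higher. These calls were also lost without WT SD 41, at adjusted p of 0.0977, 0.0625 and 0.0977, those of Trem2 and Apoe without WT SD 39 (0.0692 and 0.0709) or DKO SD 35 (0.0522 and 0.0554), and that of Apoe without DKO SD 1 or WT SD 42 (0.0575 and 0.0601). With forebrain and liver levels as covariates none of the 3 was called, at 1.18 for Trem2 (adjusted p 0.137), 1.30 for Tyrobp (adjusted p 0.0935) and 0.49 for Apoe (adjusted p 0.246). The genes called in this comparison fell to 7 under that fit, to 2 with the microglia level as a covariate and to 69 with no filter on low values, against 1265. Leaving out 1 library gave 12 to 2669, with WT SD 41 (12), WT SD 39 (23), DKO SD 35 (44), WT SD 42 (65), DKO SD 1 (101) and WT SD 40 (400) at the low end and INDY KD 22 (2514) and INDY KD 20 (2669) at the high end. Both comparisons share the 4 WT SD libraries.

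The DKO against INDY pair shares no library with the CSB against WT pair. On KD, DKO libraries were higher than INDY libraries by 1.02 ± 0.21 for Trem2 (adjusted p 0.0329) and 1.01 ± 0.22 for Tyrobp (adjusted p 0.0456). Of all genes 0.0983% were called, 0.0842% higher. All 5 DKO KD libraries lay above all 6 INDY KD libraries for both genes, and such splits were not counted over all genes. Apoe differed by 0.42 ± 0.11 and was not called (adjusted p 0.205), except without INDY KD 22 (0.50, adjusted p 0.0374). The Trem2 call was lost without any 1 of 9 of the 11 libraries compared, all but INDY KD 15 and INDY KD 22 (adjusted p 0.0532 to 0.15), and the Tyrobp call without any 1 of 26 libraries (adjusted p 0.0506 to 0.202). On SD the differences were 0.86 ± 0.23 for Trem2 and 1.05 ± 0.23 for Tyrobp, neither called (adjusted p 0.259 and 0.0826), where 0.0608% of all genes were. Unadjusted, 4 of the 7 passed a p under 0.05, beside 6.16% of all genes. Without CSB KD 13 or INDY KD 20, neither of them an SD library, Tyrobp was called on SD at adjusted p of 0.0244 and 0.026.

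Against WT on KD no gene of the group was called in CSB or in DKO libraries, where limma called 0.00468% and 0.00936% of all genes, or 0.0469% and 0.112% without the library labelled WT KD 25. At an unadjusted p under 0.05, 2 of the 7 genes passed in CSB and 4 in DKO, beside 8.23% and 6.39% of all genes. Trem2 differed by 0.58 ± 0.23 in CSB and 0.74 ± 0.23 in DKO, and without the library labelled WT KD 25 by 0.84 and 1.00 (adjusted p 0.35 and 0.0877). Without WT KD 7 and 12, which leaves that library beside WT KD 28, the Trem2 differences were 0.09 and 0.25. Losing Slc13a5 made no call: 0 of 7 genes passed in INDY against WT on SD or KD (0.00468% and 0.00936% of all genes), in DKO against CSB on SD or KD (0.00468% and 0.0281%), and in the average over diets of both Slc13a5 genotypes (0.014%). In that average 0 of 7 passed an unadjusted p under 0.05, where 9.38% of all genes did, and the largest difference of the group was -0.17 ± 0.15, of Inpp5d. Unadjusted, 2 of 7 passed in INDY against WT on SD (14.3% of all genes), Apoe at 0.26 and Plcg2 at 0.39, and 2 on KD (6.59%), Tyrobp at -0.52 and Syk at -0.68. All 7 differences of INDY against WT were above 0 on SD and below 0 on KD. Without the library labelled WT KD 25 the 7 on KD ran from -0.90, of Syk, to -0.02, of Trem2, and only Syk passed unadjusted (5.86% of all genes). In DKO against CSB 0 of 7 passed unadjusted on SD (13.6%) or KD (1.73%). The interval of Trem2 for DKO against CSB was -0.39 to 0.50 on SD and -0.28 to 0.59 on KD. The CSB difference with Slc13a5 lost minus that with it present was 0.10 ± 0.22 for Trem2, 0.21 ± 0.23 for Tyrobp and 0.04 ± 0.12 for Apoe, with adjusted p of 1.00, 0 genes called and 0 of 7 at an unadjusted p under 0.05 (3.1% of all genes). With the library labelled WT KD 25 left out it was -0.03 for Trem2, 0.12 for Tyrobp and 0.01 for Apoe.

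The diets made no call in the group either. KD against SD called 0 of the 7 genes, and 0% of all genes, over all genotypes and within WT, INDY and CSB, and 0 of 7 with 0.00468% of all genes within DKO. Averaged over genotypes, Trem2 differed between KD and SD by -0.00 ± 0.11, Tyrobp by 0.08 ± 0.12 and Apoe by -0.10 ± 0.06. Within WT, Tyrobp was at 268 to 473 on KD and 130 to 223 on SD, without overlap. Inpp5d was at 155 to 389 and 90.1 to 140, also without overlap. How many of all genes split this way was not counted. The WT differences between diets were 0.78 ± 0.25 for Tyrobp, 1.07 ± 0.33 for Inpp5d and 0.98 ± 0.32 for Syk. Adjusted p from limma was 0.265, 0.262 and 0.265. At an unadjusted p under 0.05, 4 of the 7 genes passed in WT, where 13.4% of all genes did, 1 in INDY (4.63%) and 0 in CSB (3.43%), DKO (8.11%) and the average (3.16%). When the library labelled WT KD 25 was left out the WT differences were 0.60 for Tyrobp, 1.04 for Inpp5d and 1.19 for Syk (adjusted p 0.649, 0.605 and 0.388), and 4 of the 7 genes still passed unadjusted, where 7.41% of all genes did.

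**Figure D3:**
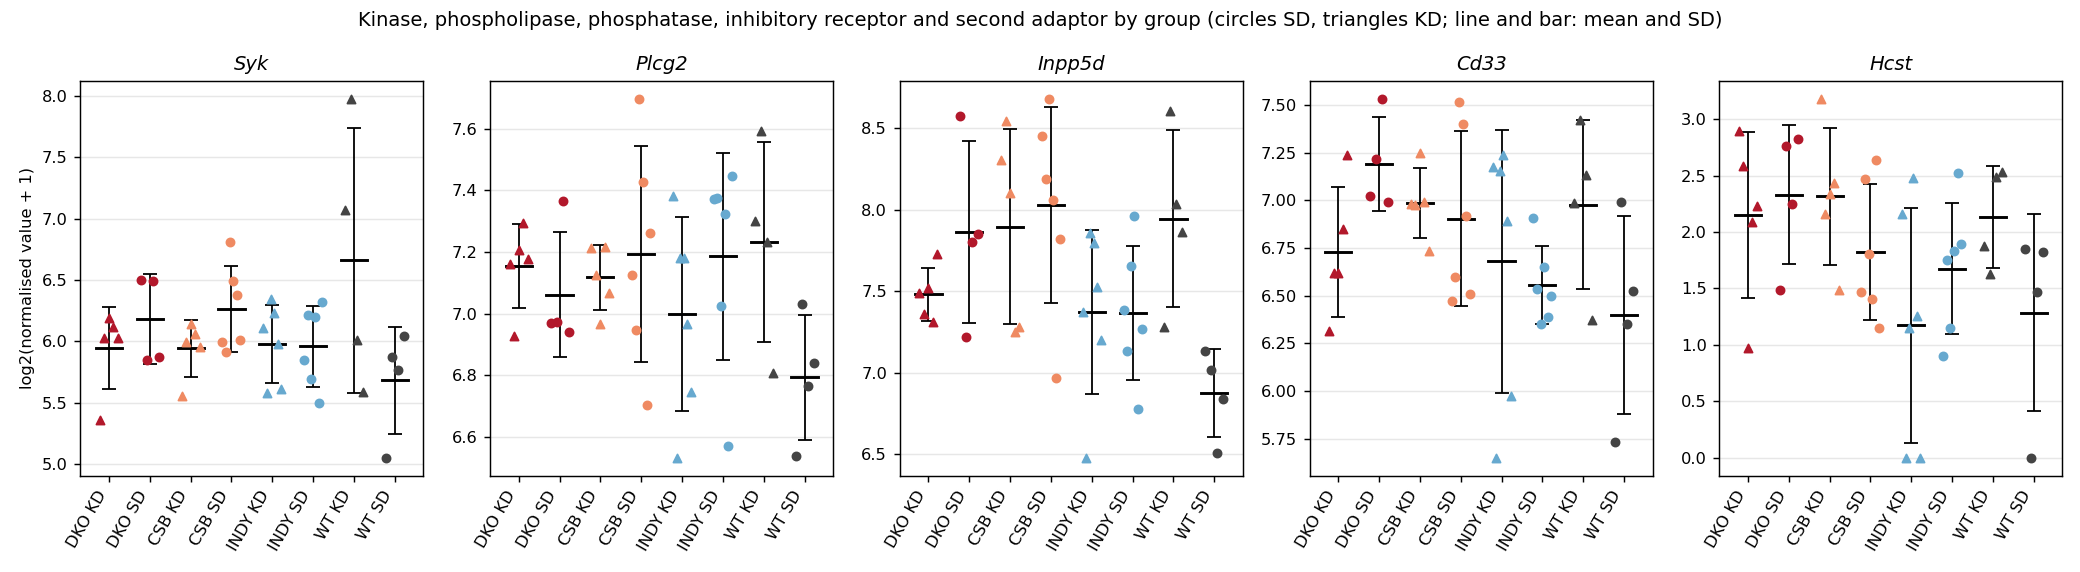
Log2(normalised value + 1) of Syk, Plcg2, Inpp5d, Cd33 and Hcst by group, with 1 point per library (triangles KD, circles SD) and the mean with its SD. The range of the DKO and CSB libraries overlaps that of the INDY and WT libraries for all 5 genes. Single groups can lie apart, as WT SD (90.1 to 140) and WT KD (155 to 389) do for Inpp5d. The 2 highest Syk points, 251 and 134 as normalised values, are WT KD 12 and WT KD 7.

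Downstream of the adaptor, neither the kinase nor the phospholipase was called in any of the 21 comparisons. Syk, the kinase recruited by TYROBP, ran from 40.0 through a median of 64.2 to 111 in DKO and CSB libraries, against 32.1 through 62.7 to 251 in INDY and WT libraries. Its difference averaged over diets was 0.01 ± 0.15, with an interval of -0.27 to 0.30 and an adjusted p of 0.975. Plcg2 ran from 103 through 140 to 206 in DKO and CSB libraries, against 91.6 through 137 to 192 in INDY and WT libraries. Its difference averaged over diets was 0.08 ± 0.09, with an interval of -0.09 to 0.25 and an adjusted p of 0.677. In the average over diets, the intervals of Syk and Plcg2 end below the Trem2 and Tyrobp intervals. On SD alone the Syk interval, -0.00 to 0.80, overlapped that of Trem2, 0.66 to 1.29, but not that of Tyrobp, 0.87 to 1.51.

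Syk stood highest in the same 2 libraries that held markers of neutrophils and monocytes. WT KD 12 had a Syk value of 251 and WT KD 7 had 134, against 32.1 to 111 in the other 38 libraries, beside S100a8 values of 2984 and 625 against 1.86 to 112. S100a8 encodes a calcium-binding protein abundant in neutrophils, and Ly6g, a neutrophil surface marker, was at 46.8 and 6.07 there, against 0 to 3.87. On KD the Syk difference was -0.37 ± 0.20 with all libraries and 0.06 without these 2, and against WT on KD it was -0.72 ± 0.30 in both CSB and DKO with them and 0.15 in both without them. None of these Syk differences was called (adjusted p 0.404 and above). Whether these markers bear on the Syk values was not tested beyond this.

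The phosphatase gene Inpp5d ran from 124 through a median of 224 to 409 in DKO and CSB libraries. It ran from 88.2 through 160 to 389 in INDY and WT libraries. Its difference averaged over diets, 0.43 ± 0.15, was not called (adjusted p 0.121), with an interval of 0.14 to 0.72. On SD it was 0.83 ± 0.21 (adjusted p 0.0841). On KD the Inpp5d difference was 0.03 ± 0.21 with an adjusted p of 0.958, and the KD difference minus the SD difference, -0.80 ± 0.30, was not called (adjusted p 0.532). On SD it was called without any 1 of CSB SD 30 (0.93, adjusted p 0.0123), DKO SD 34 (0.93, adjusted p 0.0453) or INDY KD 20 (0.83, adjusted p 0.0448). In CSB against WT on SD it was 1.15 ± 0.30 (adjusted p 0.176), and 1.37 with an adjusted p of 0.0243 without CSB SD 30. In DKO against WT on SD it was 0.99 ± 0.33 (adjusted p 0.0569), and adjusted p of 0.0389 to 0.0469 were reached without DKO SD 34, CSB SD 30, INDY KD 20 or INDY KD 22. Cd33 ran from 78.7 through 125 to 184 in DKO and CSB libraries, against 49.3 through 95.7 to 171 in INDY and WT libraries. It differed by 0.30 ± 0.13 over both diets (adjusted p 0.22), by 0.57 ± 0.19 on SD (adjusted p 0.299) and by 0.03 ± 0.19 on KD (adjusted p 0.956). Without the library labelled WT KD 25 the KD differences of Syk, Plcg2, Inpp5d and Cd33 were -0.48, 0.02, 0.04 and 0.05, none called, and the Syk difference averaged over diets was -0.04. In DKO against WT on SD, Cd33 differed by 0.79 ± 0.29 (adjusted p 0.073), and adjusted p was 0.0462 without INDY KD 20. Hcst, the second adaptor, ran from 0.957 to 8.07 in DKO and CSB libraries and from 0 to 4.81 in INDY and WT libraries and was too low to test.

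The group was set beside a list of 10 homeostatic microglia genes. With the CSB genotype averaged over diets the list had 8 of 10 genes above 0 and a median difference of 0.24, against a median of 0.01 over all tested genes. P2ry12, a purinergic receptor of resting microglia, differed by -0.13 ± 0.10 (adjusted p 0.532) and Tmem119, a microglial surface protein, by -0.07 ± 0.10 (adjusted p 0.743). The list median was 0.40 on SD and 0.08 on KD. The mean log2 level of the list was 8.72 in DKO KD, 8.96 in DKO SD, 8.69 in CSB KD, 8.74 in CSB SD, 8.58 in INDY KD, 8.68 in INDY SD, 8.72 in WT KD and 8.25 in WT SD. It was therefore lowest in WT SD, the control of 2 of the pairs above, and highest in DKO SD. With the library labelled WT KD 25 left out the WT KD level was 8.58, and the median difference of the list was 0.27 averaged over diets and 0.17 on KD.

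**Figure D4:**
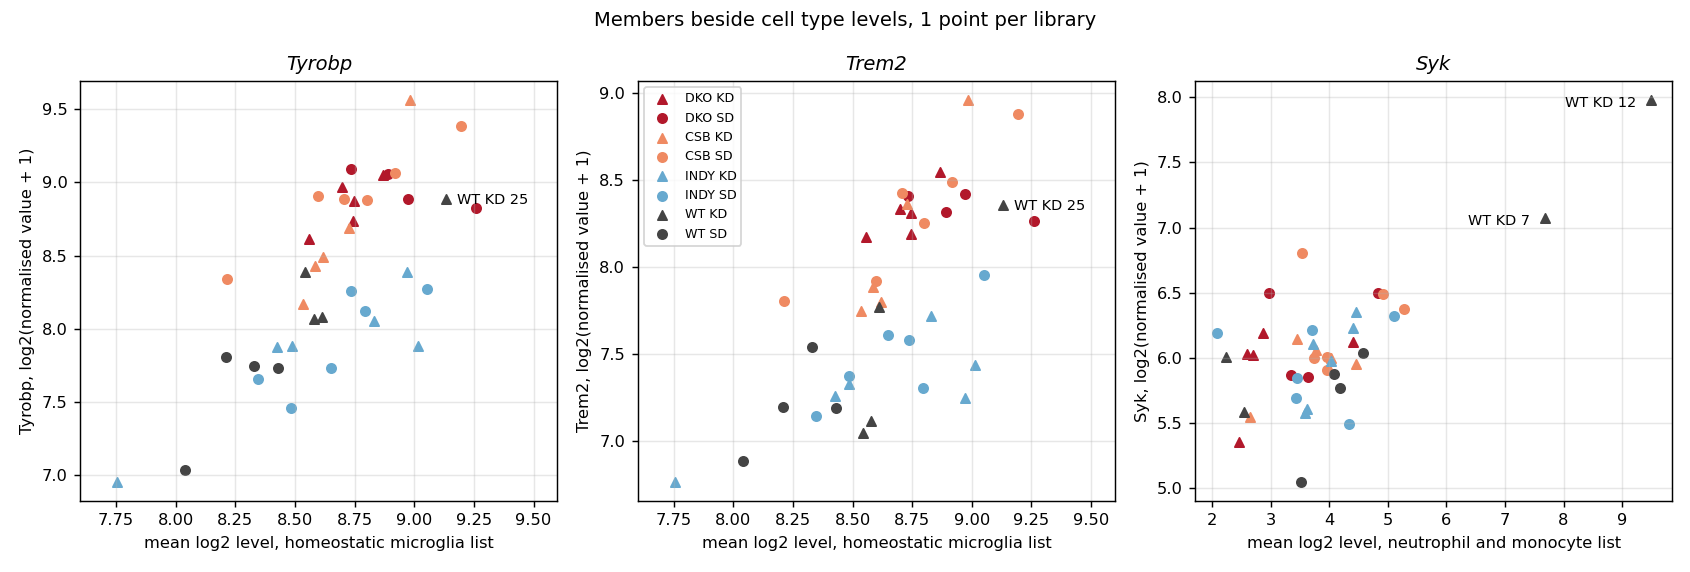
Tyrobp and Trem2 (log2 of the normalised value + 1) against the mean log2 level of the homeostatic microglia list, and Syk against that of the neutrophil and monocyte list, with 1 point per library. Relative to the microglia level, Tyrobp averages -0.02 to 0.17 in the DKO and CSB groups and -0.76 to -0.36 in the INDY and WT groups, and WT KD 7 and WT KD 12 stand at 7.68 and 9.49 on the neutrophil axis.

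With the microglia level as a covariate, the CSB differences averaged over diets were 0.68 ± 0.09 for Trem2 (adjusted p 3.76e-06), 0.69 ± 0.08 for Tyrobp (adjusted p 5.28e-07) and 0.24 ± 0.05 for Apoe (adjusted p 0.00973). All 3 stayed called but were smaller than without it. In CSB against WT on SD the covariate left 0.64 for Trem2 (adjusted p 0.524) and 0.83 for Tyrobp (adjusted p 0.0552), and in DKO against WT on SD 0.49 and 0.65 (adjusted p 0.921 and 0.861), none of them called. In DKO against INDY on KD both stayed called, at 0.88 (adjusted p 0.00182) and 0.86 (adjusted p 0.00102). With this covariate and without the library labelled WT KD 25 the averaged differences were 0.74, 0.71 and 0.24, all called, and Trem2 was also called in DKO against WT on KD (0.88, adjusted p 0.0269) and Tyrobp in CSB against WT on SD (0.84, adjusted p 0.0258). Tyrobp minus the list level had group means of 0.12 in DKO KD, 0.00 in DKO SD, -0.02 in CSB KD and 0.17 in CSB SD, against -0.74 in INDY KD, -0.76 in INDY SD, -0.36 in WT KD and -0.67 in WT SD. Trem2 minus the list level was -0.41, -0.61, -0.54 and -0.44 in DKO KD, DKO SD, CSB KD and CSB SD, against -1.29, -1.18, -1.14 and -1.05 in INDY KD, INDY SD, WT KD and WT SD. When the library labelled WT KD 25 was left out the WT KD means were -0.40 for Tyrobp and -1.27 for Trem2. Apoe minus the list level ran from 5.65 to 5.77 over the 4 DKO and CSB group means and from 5.47 to 5.81 over the 4 INDY and WT group means. Other cell lists gave 0 calls among 7 border macrophage genes, and 1 among 12 astrocyte genes, Gfap, an intermediate filament of astrocytes, higher by 0.71 ± 0.18 (adjusted p 0.0436).

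Within groups, the receptor, the adaptor and the ligand moved together from library to library. After the group means were taken out, Pearson's r over the 40 libraries was 0.76 between Trem2 and Tyrobp, 0.72 between Tyrobp and Apoe and 0.67 between Trem2 and Apoe. It was 0.71 between Plcg2 and Cd33, 0.64 between Syk and Cd33 and 0.64 between Syk and Plcg2. Trem2 and Syk gave -0.16, and 0.27 without WT KD 7 and 12. With the homeostatic microglia list, r was 0.79 for Tyrobp, 0.73 for Trem2, 0.65 for Apoe and Plcg2, 0.64 for Inpp5d, 0.59 for Cd33 and 0.26 for Syk (0.56 without WT KD 7 and 12). Without the library labelled WT KD 25 the 3 values among Trem2, Tyrobp and Apoe were 0.73, 0.71 and 0.68, Trem2 and Syk gave -0.03, and Syk gave 0.37 with the microglia list. The points of each pair share a library and its depth, so these values are descriptions. By the same measure the genes most like Trem2 were C1qb (0.86), Ly86 (0.85), C1qc (0.84) and C1qa (0.84). Those most like Tyrobp were C1qb (0.93), Fcgr3 (0.89), C1qc (0.88), Ctsd (0.87) and C1qa (0.87). C1qa, C1qb and C1qc encode the chains of complement C1q, a microglial product in the brain. Those most like Apoe were Tomm6 (0.87), Slamf9 (0.84), Prdx6 (0.84), Rps6 (0.83) and Tpt1 (0.83), none of them among those of Trem2 or Tyrobp.

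**Figure D5:**
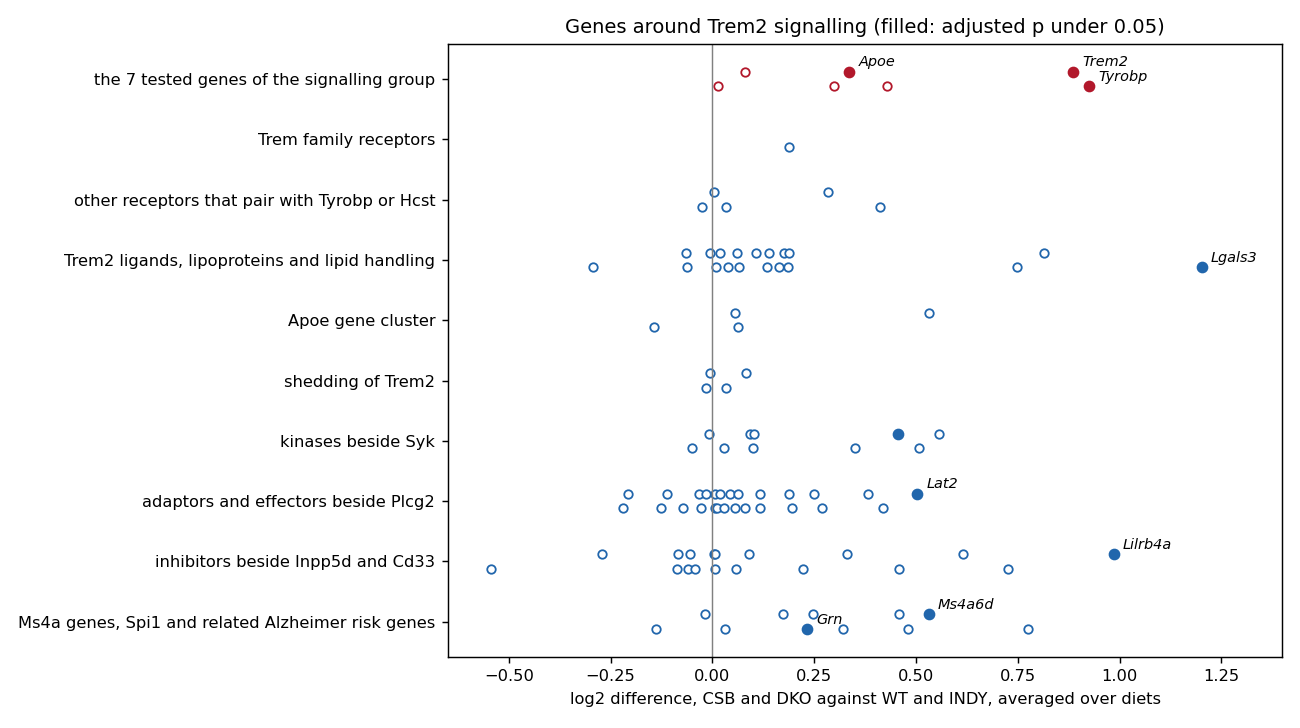
Log2 difference of DKO and CSB libraries against INDY and WT libraries, averaged over diets, for the 7 tested genes of the group and for 98 other pathway genes in 9 lists (1 point per gene, filled where the adjusted p is under 0.05, most of these with their names). Trem2 and Tyrobp stand at 0.89 and 0.93, and of the other genes only Lgals3 (1.20) and Lilrb4a (0.99) stand as high and are called, the second with all libraries but not without the library labelled WT KD 25.

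Around the group, 111 genes of 9 lists gave the rest of the pathway, of which 98 could be tested. In the average over diets 6 were higher with the CSB genotype and 0 lower, 71 of 98 differences were above 0, and the median was 0.06, against 52.1% above 0 and a median of 0.01 over all tested genes. Among 19 ligands and lipid genes 1 was called, Lgals3, which encodes galectin-3, a lectin reported as a TREM2 ligand, at 1.20 ± 0.21 (adjusted p 0.000998). Its mean was 129 ± 54.5 in DKO KD and 113 ± 41.2 in DKO SD, against 45.7 ± 28.9 in INDY KD and 50.7 ± 27.2 in INDY SD (SD, n as above). CSB KD had 93.9 ± 36.7 and CSB SD 134 ± 64.8, against 68.6 ± 48.5 in WT KD and 50.9 ± 13.6 in WT SD. Among 18 inhibitors 1 was called, Lilrb4a, an inhibitory receptor of the leukocyte immunoglobulin-like family, at 0.99 ± 0.24 (adjusted p 0.0358), with group means of 59.2 to 75.7 in DKO and CSB, against 19.5 to 29.1 in the INDY groups and WT SD and 97.0 in WT KD. With the library labelled WT KD 25 left out Lilrb4a was at 0.96 and no longer called (adjusted p 0.0561), 5 of the 98 genes were called, and the other genes named here as called stayed so. Among 26 adaptors and effectors 1 was called, Lat2, a transmembrane adaptor of myeloid and B cells, at 0.50 ± 0.12 (adjusted p 0.0247). Among 11 tested Ms4a and related risk genes 2 were called, Ms4a6d, a membrane protein gene of myeloid cells, at 0.53 ± 0.12 (adjusted p 0.0228), and Grn, which encodes the lysosomal protein progranulin, at 0.23 ± 0.06 (adjusted p 0.0275). The lists of other Trem family receptors (1 tested), other receptors that pair with the adaptors (5), the Apoe gene cluster (4) and shedding of Trem2 (4) had 0 calls. Apoc1, which lies beside Apoe and encodes another apolipoprotein, differed by 0.53 ± 0.27 (adjusted p 0.29), and Adam10, a protease that sheds TREM2, by 0.08 ± 0.05 (adjusted p 0.398).

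On SD 7 of the 98 genes were called, all higher, or 5 without the library labelled WT KD 25, among them Lilrb4a at 1.52 ± 0.34 (adjusted p 0.0248), Spi1, which encodes PU.1, at 0.81 ± 0.19 (adjusted p 0.0381) and Lat2 at 0.70 ± 0.17 (adjusted p 0.043). On KD 0 of 98 were called. In DKO against WT on SD 5 were higher and 2 lower, in a comparison that called 5.92% of all genes. The higher ones held Vav1, a guanine nucleotide exchange factor, at 0.91 ± 0.23 (adjusted p 0.0345), and Clu, a lipid-binding chaperone, at 0.48 ± 0.13 (adjusted p 0.0379). The lower ones, named after their values were seen, were Abca7, a lipid transporter, at -0.65 ± 0.19 (adjusted p 0.0436) and Malt1, a signalling protease, at -0.72 ± 0.21 (adjusted p 0.0428). Over all genes, the calls of DKO against WT on SD fell to 7 with forebrain and liver levels as covariates and to 12 without WT SD 41. Whether these pathway genes stay called under those fits was not tested. The other comparisons, apart from CSB against WT on SD, called 0 of the 98.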

How the data were processed

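RNA-seq of cerebellum was analysed in 40 libraries of 8 groups. Per the labels' protocols, total RNA (trizol-chloroform) had its ribosomal RNA removed before DNBseq library preparation. The deposited values are a signal per gene and library, estimated reads that the authors normalised. The submitters' processing notes name Bowtie2, Salmon, DESeq2 and mm9, with no versions. Low values were whole multiples of a common step, within 0.02, for 34.1% to 67.5% of them, so counts were not recovered, depth is unknown and count tests were not used.

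Symbols and positions came from GENCODE M21 (GRCm38), matched by ID without version for 54097 of 54331 rows. The 21367 genes that reached 10 in 4 or more libraries were tested on log2(value + 1), which understates changes of low genes. limma 3.58.1 (R 4.3.3, data.table version 1.17.8) fitted 1 mean per group with intensity trend and robust variances, and tests were two-sided with Benjamini-Hochberg adjustment over all tested genes in each of 21 comparisons. The 95% intervals are from the normal distribution and the standard error of the fit. Fold is 2 to the size of the log2 difference. List levels are means of log2(value + 1) over the tested genes of the list. Scaling over the tested genes needed factors of 1.002 to 1.005. The fit was tested on simulated data. Python 3.11.15 and matplotlib 3.10.9 were used for the plots.

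The members and lists were chosen with earlier results of these data known. Named genes are the members, the called pathway genes (at most 4 in a comparison other than the average), cell genes whose list moves with a member, and the 5 genes with a mean of 20 or more most like Trem2, Tyrobp and Apoe; Apoc1, Adam10, Gm6768 and the genes most like the other members were picked with their values known. Some genes that meet these rules are not reported here. The settings varied were pseudocounts of 0.5 and 5, no filter, rescaling, no trend, compared groups only, cell levels as covariates and leaving out libraries.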

Additional observations from a re-analysis of the deposited data

Results flagged for a closer look

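Dixon's ratio, the gap of an extreme library to its nearest neighbour over the range of its group, was computed for 64 groups of 4 to 6 libraries, and chance flags about 1 in 20 such groups. In 4 groups 1 library lay apart. Tyrobp in WT SD 41 was 130, below 211 to 223 in the other WT SD libraries (ratio 0.901). Tyrobp in INDY KD 20 was 123, below 233 to 334 in the others of its group (ratio 0.64). Both libraries had the lowest levels of the homeostatic microglia list, 7.75 in INDY KD 20 and 8.04 in WT SD 41, beside 8.21 to 9.26 elsewhere. Syk in DKO KD 2 was 40.0, below 64.1 to 71.9 in the other DKO KD libraries (ratio 0.803). Plcg2 in DKO SD 35 was 164, above 122 to 125 in the other DKO SD libraries (ratio 0.922), and that library had a forebrain level of 7.56. The part of these levels in the values was not tested. The Tyrobp difference averaged over diets was called without each of these libraries.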

How the results depend on the processing

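No paired analysis was possible because every library has its own number. Averaged over diets the CSB comparison called 3 genes under all 51 alternatives, with adjusted p of 1.78e-07 to 5.5e-05 for Trem2, 5.28e-07 to 4.01e-05 for Tyrobp and 0.000103 to 0.0258 for Apoe. The count of called genes changed elsewhere. On KD (1) it was 2 with the microglia covariate and 0 with only the compared groups, without WT KD 7 and 12 or without the 5 libraries high in liver genes, and 0 to 2 leaving out 1 library. For CSB against WT on SD (2) it was 0 with the microglia covariate, 1 with forebrain and liver covariates, with compared groups only or without the 5 libraries, and 0 to 3 leaving out 1. For DKO against INDY on SD (0) it was 1 with the microglia covariate and 0 to 1 leaving out 1. For DKO against INDY on KD (2) it was 0 with compared groups only, 1 with no filter, no trend, forebrain and liver covariates, without DKO SD 1 and 35 or without the 5 libraries, and 0 to 3 leaving out 1. For DKO against WT on SD (3) it was 0 with either covariate set and 0 to 5 leaving out 1. For DKO and CSB against INDY and WT on SD (3) it was 2 to 4, and in the other comparisons it stayed at 0, except 1 for DKO against WT on KD with the microglia covariate and without WT KD 25. That last setting gave 2 on KD, 1 for CSB against WT on SD, 1 for DKO against INDY on SD and 0 for DKO against WT on SD. Causes were not tested. No called difference reversed. With the microglia covariate Syk and Plcg2 gave -0.0792 and -0.0587 averaged over diets, Plcg2 -0.10 on SD, and Plcg2, Inpp5d and Cd33 -0.0161, -0.033 and -0.0225 on KD; for DKO against INDY on KD Inpp5d and Cd33 gave -0.0445 and -0.0776, and for DKO against WT on SD Plcg2 gave -0.17. With that covariate and without WT KD 25, Syk and Plcg2 gave -0.1976 and -0.0958 averaged, Plcg2 -0.1247 on SD, Plcg2, Inpp5d and Cd33 -0.0668, -0.1041 and -0.0644 on KD, Cd33 -0.0441 for CSB against WT on KD, Inpp5d and Cd33 -0.0566 and -0.0847 for DKO against INDY on KD and Plcg2 -0.2155 for DKO against WT on SD. Without DKO SD 1 and 35 Syk gave -0.0664 averaged and -0.10 for DKO against INDY on SD. Without WT KD 7 and 12 Syk gave 0.0577 on KD, and Syk and Plcg2 gave 0.15 and 0.10 for CSB and 0.15 and 0.13 for DKO against WT on KD. With forebrain and liver covariates Inpp5d gave 0.15 for CSB against WT on KD, and Syk 0.0398 for DKO against INDY on KD, or 0.0194 without the 5 libraries. Leaving out 1 library, Syk ran from -0.0767 to 0.12 averaged, Plcg2, Inpp5d and Cd33 from -0.0511 to 0.0794, -0.0809 to 0.14 and -0.0744 to 0.10 on KD, and from -0.26 to 0.0042, -0.27 to 0.17 and -0.19 to 0.16 for CSB against WT on KD. For DKO against INDY on KD Syk, Inpp5d and Cd33 ran from -0.11 to 0.12, -0.0686 to 0.21 and -0.16 to 0.16, and for DKO against WT on KD Plcg2 from -0.22 to 0.0396. Unknown depth, 4 to 6 libraries per group and bulk tissue limit all values. Over all genes, leaving out 1 library gave 14 to 36 calls on KD (23), 10 to 50 for CSB against WT on SD (29), 2 to 20 and 7 to 33 for DKO against INDY on SD (13) and KD (21). The alternatives without WT KD 7 and 12, without the 5 libraries and with the microglia covariate but without WT KD 25 were chosen after seeing the data.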

Other observations

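The genes most like the other members, by Pearson's r over the 40 libraries after the group means were taken out, differed from those of Trem2 and Tyrobp and are given without explanation. For Syk they were Arhgap45 (0.80), Mki67 (0.77), Arhgap30 (0.76), Dock2 (0.74) and Zfp217 (0.74), where Mki67 is a marker of dividing cells. These Syk values include WT KD 7 and 12, its 2 highest libraries, and were not computed without them. With the neutrophil and monocyte list, r of Syk was 0.71, and 0.31 without WT KD 7 and 12. The genes most like Plcg2 were Dock2 (0.79), Laptm5 (0.79), Nckap1l (0.79), St3gal1 (0.79) and Pld4 (0.77). For Inpp5d they were Tbc1d10a (0.73), Herc4 (0.73), Pygl (0.72), Mchr1 (0.71) and Pde8b (0.71), and for Cd33 Kcnb2 (0.76), Dtx4 (0.74), Tifab (0.74), Ccdc149 (0.73) and Myadm (0.73). Inpp5d had an r of 0.50 with the forebrain list and of -0.57 with the cerebellar neuron list, where Tyrobp had 0.04 and -0.27. Trem2 had an r of -0.60 with the choroid plexus list and -0.57 with the neutrophil and monocyte list, and -0.48 and -0.35 without WT KD 7 and 12. The points of each pair share a library and its depth.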
